A study of Bos taurus with 8 samples.

Results

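Rumen papillae are the leaf-shaped folds of stratified squamous epithelium through which a cow absorbs the acids of rumen fermentation. The genes described here encode enzymes with which cells remove superoxide, peroxides and free haem: SOD1, SOD2, CAT, GPX1, GPX3, PRDX1, PRDX2, PRDX6, TXN and HMOX1. These 10 genes were taken by name, and a probe was assigned to a gene when its RefSeq accession belonged to that gene in the bovine reference. A probe was found for 9 of the 10, 1 probe per gene, among the 7788 gene symbols and 21475 probes of the array. No probe was matched to SOD2, the mitochondrial superoxide dismutase, so it is not analysed here.

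The samples came from 4 ruminally cannulated, lactating Holstein cows in a crossover. Each cow was fed a low-concentrate diet (LC, 40% of the ration as concentrate) and a high-concentrate diet (HC, 70%), and papillae were taken from the ventral sac of the rumen on day 21 of each period, 4 h after feeding. Cows 1 and 2 received LC in period 1 and HC in period 2, and cows 3 and 4 received the diets in the other order. The 8 samples were hybridized to 8 single-colour arrays, 4 per diet, with the 4 arrays of a period on 1 slide, so that slide and period cannot be told apart. The question was whether the defence genes differed between the diets.

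Superoxide dismutases turn superoxide into hydrogen peroxide, and catalase, glutathione peroxidases and peroxiredoxins reduce that peroxide. Of the peroxiredoxins here, PRDX1 and PRDX2 do so with electrons that thioredoxin passes on. Haem oxygenase 1 breaks down free haem, and its gene is a classical target of the transcription factor NRF2, which is also known to raise PRDX1, TXN and other genes of the group. The rumen epithelium makes heavy use of short-chain fatty acids as fuel and lies beside microbes and their endotoxin, which is why this group is of interest in the tissue.

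Values are quantile-normalized log2 signals, in which a difference of 1 is a doubling, and differences are HC minus LC from a limma fit of diet, period and their interaction. This fit has no term for the single cow, so its p and intervals for diet do not pair the arrays of a cow. All 9 probes were well above background, by the scanner software's own test, on all 8 arrays. Each probe had 2 spots per array, whose log2 intensities differed by at most 0.37. Across the arrays, 76.9 to 81.2% of probes were well above background, no spot was saturated, and the number of arrays limits the precision. Of the epithelial markers KRT14, DSP, SFN and DSG1 passed the background test on every array, while the TP63 probe passed it on none. The summed epithelial signal, on a log2 scale, was 18.49 to 18.89 on LC and 18.50 to 18.90 on HC, and that of the 10 stroma, muscle and vessel markers with a probe 15.03 to 15.27 and 14.99 to 15.29. Such a sum is weighted to its brightest markers, here KRT14 (mean 17.97 on LC and 17.89 on HC), and does not show DSG1. DSG1 alone ran from 10.01 to 12.26 on LC and from 9.13 to 12.92 on HC. Its difference between diets was -0.64 (standard error 0.83).

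Of the enzyme genes none met the thresholds for a change with diet, and the largest difference was that of HMOX1. The difference between diets was smaller than 0.1 (log2) for 8 of the 9 genes, and HMOX1 was the 1 gene with a difference of 1.5-fold or more. A gene was counted as changed when its signal moved 1.5-fold or more at an unadjusted p under 0.05, and 0 of the 9 met this in limma, against 0.922% of all 21475 probes and 0.274% of the 16030 probes that were, like these 9, well above background on every array. At an unadjusted p under 0.05 alone the count was also 0 of 9, against 3.65% of all probes and 2.61% of those 16030. A general linear model without moderation gave 0 of 9 as well, against 891 of all 21475 probes. The adjusted p was 1.00 for each of the 9, and 0 of all probes had an adjusted p under 0.05. The median difference was -0.0012 over the 9 genes and -4.48e-05 over all probes. In none of the 9 genes were the arrays of the diets separated, against 1.6% of all probes, and in none was the direction the same in all 4 cows, against 6% of all probes higher and 4.98% lower on HC in every cow.

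**Figure D1:**
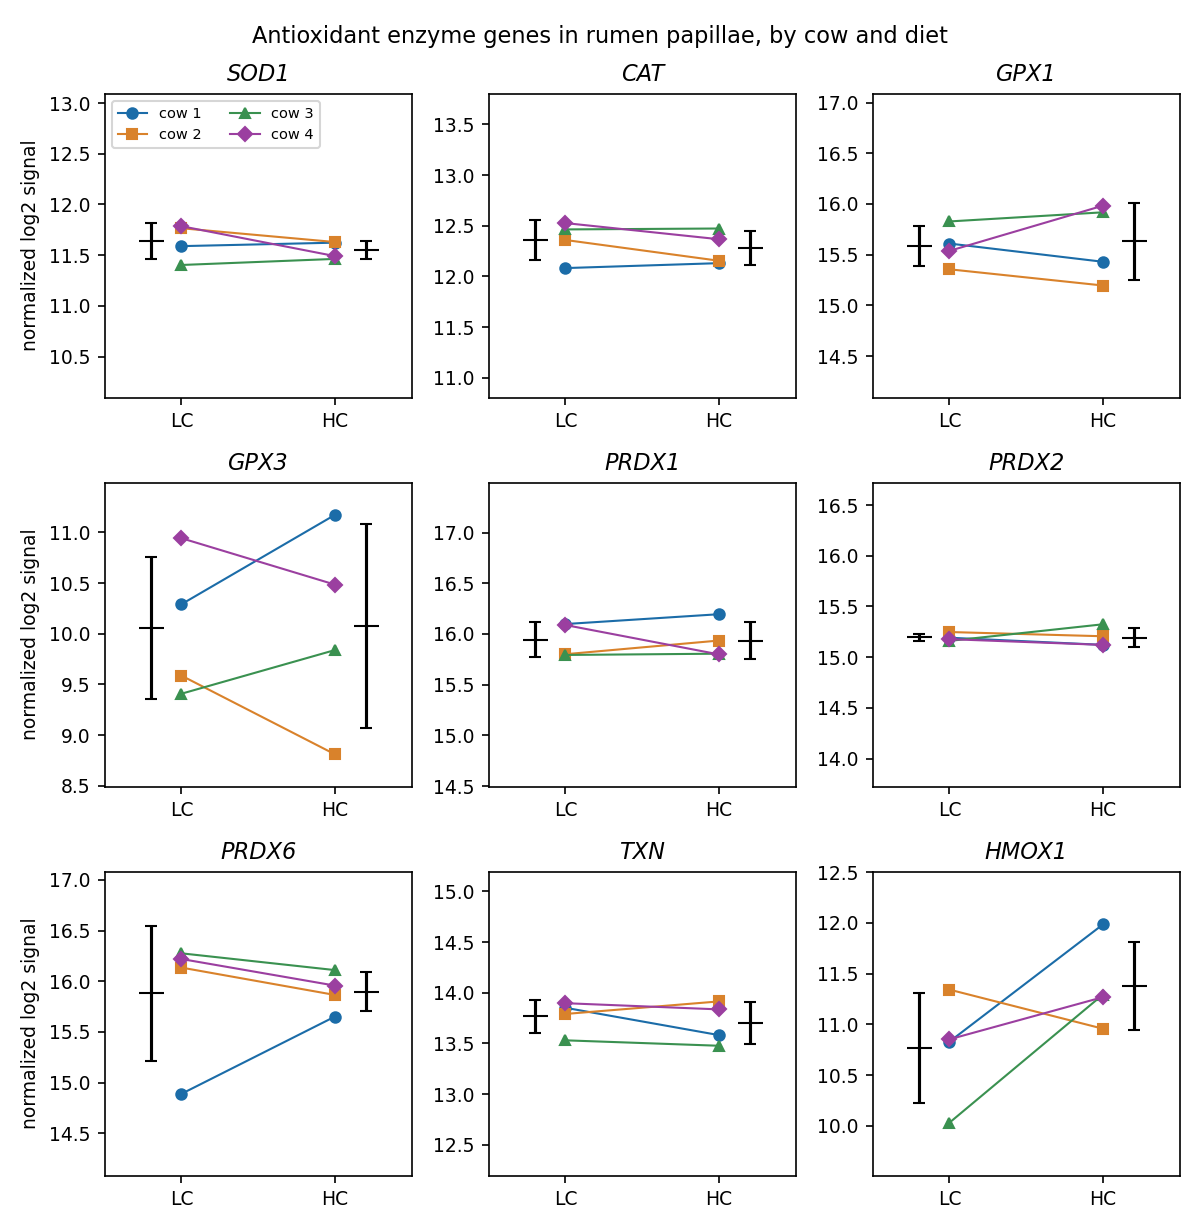
Normalized log2 signal of the 9 enzyme genes on LC and HC, with a line for each of the 4 cows; each panel spans 3 log2 units. The black marks beside the points are the mean and SD of the 4 arrays of a diet. The lines of SOD1, CAT, PRDX1, PRDX2 and TXN lie nearly flat, those of GPX3 cross, cow 1 lies lowest for PRDX6 on both diets, and HMOX1 is higher on HC in 3 of the 4 cows.

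SOD1 (NM_174615) encodes the copper and zinc superoxide dismutase of the cytosol. Its log2 signal in cows 1 to 4 was 11.59, 11.77, 11.40 and 11.79 on LC, and 11.62, 11.63, 11.46 and 11.49 on HC. The groups overlapped, and the HC arrays lay inside the range of the LC arrays. The difference was -0.08 (standard error 0.11; limma, unadjusted p 0.489), and an exact two-sided permutation test of 4 arrays against 4 gave 0.400. The 95% interval was 0.778- to 1.14-fold, so a change of 1.5-fold in either direction lay outside it.

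CAT (NM_001035386), the gene of catalase, a haem enzyme of peroxisomes, had signals of 12.08, 12.36, 12.46 and 12.53 on LC and of 12.13, 12.15, 12.47 and 12.37 on HC in cows 1 to 4. Every array of cows 1 and 2 lay below every array of cows 3 and 4. The difference between diets was -0.08 (standard error 0.10; limma, unadjusted p 0.465), with a 95% interval of 0.804- to 1.12-fold. In 2 of the 4 cows CAT was higher on HC.

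The glutathione peroxidases GPX1 and GPX3 reduce peroxides with glutathione and carry selenocysteine in their active site. GPX1 (NM_174076), the form inside cells, had signals of 15.61, 15.36, 15.83 and 15.54 on LC and 15.43, 15.20, 15.92 and 15.98 on HC. It was lower on HC in cows 1 and 2 and higher in cows 3 and 4, so that the HC arrays spread more widely (SD 0.38, n = 4) than the LC arrays (SD 0.20, n = 4). The difference between diets was 0.05 (standard error 0.12; limma, unadjusted p 0.695). Its sign turned with scaling to the 75th percentile (-0.0066).

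GPX3 (NM_174077), the secreted form that is abundant in plasma, varied most of the 9 genes, over a range of 2.36 log2 units. Its signals were 10.29, 9.59, 9.41 and 10.94 on LC and 11.17, 8.81, 9.84 and 10.48 on HC in cows 1 to 4. Cows 1 and 4 were high on both diets and cows 2 and 3 low on both, with cow means of 10.73, 9.20, 9.62 and 10.71. The change on HC was 0.88 and 0.43 in cows 1 and 3, and -0.78 and -0.46 in cows 2 and 4. The mean difference was 0.02 (standard error 0.60; limma, unadjusted p 0.975), with a 95% interval of 0.370- to 2.77-fold. This interval was the widest of the 9, and a difference of 2-fold in either direction lay inside it. The sign rested on single cows, from -0.57 without the HC array of cow 1 to 0.61 without that of cow 2. Among the 6468 other named genes well above background on all 8 arrays, the patterns most like GPX3 were those of THRSP (Pearson r 0.95), PPIC (0.95) and PXDC1 (0.94). These r values describe 8 arrays of 4 cows that share slides, and the 3 genes were picked for a high r. The differences between diets were 0.03, -0.02 and 0.02 (log2) for THRSP, PPIC and PXDC1.

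The peroxiredoxins reduce peroxides at a reactive cysteine, and PRDX1 and PRDX2 are the typical 2-cysteine forms of the cytosol. PRDX1 (NM_174431) had signals of 16.10, 15.80, 15.79 and 16.09 on LC and 16.19, 15.93, 15.81 and 15.80 on HC. Cow 1 was high on both diets, while cow 4 was high on LC only. The difference was -0.01 (standard error 0.13; limma, unadjusted p 0.931), while it was 0.01 in the table of normalized values that the authors deposited.

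PRDX2 (NM_174763), which is also one of the most abundant proteins of red blood cells, was the steadiest of the 9 genes. Its signals were 15.19, 15.25, 15.16 and 15.18 on LC and 15.12, 15.21, 15.32 and 15.12 on HC, a range of 0.20 over the 8 arrays. The difference was -0.0012 (standard error 0.09), and 0.02 in the deposited table, with a 95% interval of 0.859- to 1.16-fold. Over the same arrays the summed signal of the 5 red blood cell markers with a probe ran from 11.86 to 13.34 on LC and from 11.64 to 13.17 on HC (log2). This sum is carried by HBA (mean 12.64 on LC and 12.30 on HC) and does not show HBB (4.35 and 4.40). SLC4A1 passed the background test on no array and ALAS2 on 2, both HC, and 0 of the 5 met both thresholds for diet. Their part in the PRDX2 values was not tested. In bulk tissue, fewer cells of a type and less RNA per cell cannot be told apart.

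PRDX6 (NM_174643) encodes the 1-cysteine peroxiredoxin, which also has phospholipase activity. Its signals were 14.89, 16.14, 16.28 and 16.22 on LC and 15.65, 15.87, 16.11 and 15.96 on HC. The LC array of cow 1 lay more than 1 log2 unit below the other 3 LC arrays, and the HC array of the same cow was the lowest of its diet. Both spots of the probe were low on that LC array, with intensities of 32973 and 31727 against 68616 or more on the other LC arrays. Within cow 1 the signal was 0.76 higher on HC, and the other cows had differences of -0.27, -0.17 and -0.26. The mean difference was 0.02 (standard error 0.27; limma, unadjusted p 0.954), while without the LC array of cow 1 it was -0.30 with an unadjusted p of 0.0527. Without the LC array of cow 2 it was 0.33, with an unadjusted p of 0.0376, short of the fold threshold. The sign also turned with scaling to the 75th percentile (-0.03) and with normexp background correction (-0.0037).

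TXN (NM_173968), the gene of cytosolic thioredoxin, had signals of 13.85, 13.79, 13.53 and 13.90 on LC and 13.58, 13.91, 13.48 and 13.84 on HC. Cow 3 was lowest on both diets, and the groups overlapped. The difference was -0.07 (standard error 0.15; limma, unadjusted p 0.669), with a 95% interval of 0.749- to 1.22-fold.

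HMOX1 (NM_001014912) had the largest difference of the 9 genes. Its signals were 10.83, 11.34, 10.03 and 10.85 on LC (10.76 ± 0.54, SD, n = 4) and 11.99, 10.96, 11.29 and 11.27 on HC (11.38 ± 0.43, SD, n = 4). The groups overlapped, because the LC array of cow 2 was higher than 3 of the HC arrays. The HC array exceeded the LC array of the same cow by 1.16 in cow 1, 1.26 in cow 3 and 0.42 in cow 4, and cow 2 had a difference of -0.39. The difference was 0.61 (standard error 0.29), or 1.53-fold, with a 95% interval of 0.935- to 2.50-fold. Its unadjusted p was 0.0796 from limma and its exact two-sided permutation p 0.114, where 0.0286 is the smallest that 4 arrays against 4 allow. HMOX1 therefore met the fold threshold and missed the threshold on p. Neither of these tests pairs the arrays of a cow. Limma fits blocked on cow gave, for the same difference, an unadjusted p of 0.112 with period and 0.0954 without it. With cow as a random block the unadjusted p in limma was 0.0653. The difference was 0.20 between the arrays of period 1 and 1.03 between those of period 2. Each compares different cows, so their gap cannot be told apart from a difference of cows 1 and 2 from cows 3 and 4. The mean of cows 1 and 2 was 0.42 higher (standard error 0.29; limma, unadjusted p 0.202).

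Single arrays decided on which side of the thresholds HMOX1 fell. Both thresholds were met without the LC array of cow 4 (0.82, unadjusted p 0.0396) and without the HC array of cow 2 (0.87, unadjusted p 0.0178). The difference fell to 0.36 without the HC array of cow 1 and to 0.41 without the LC array of cow 3. Under the 14 settings that kept all arrays the difference was 0.58 to 0.61, and the 2 thresholds were not met together in any of them. Only another normalization, the normexp correction or the deposited table could move the difference itself. In the rest of these settings it was the same by construction, and only its p could change.

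**Figure D2:**
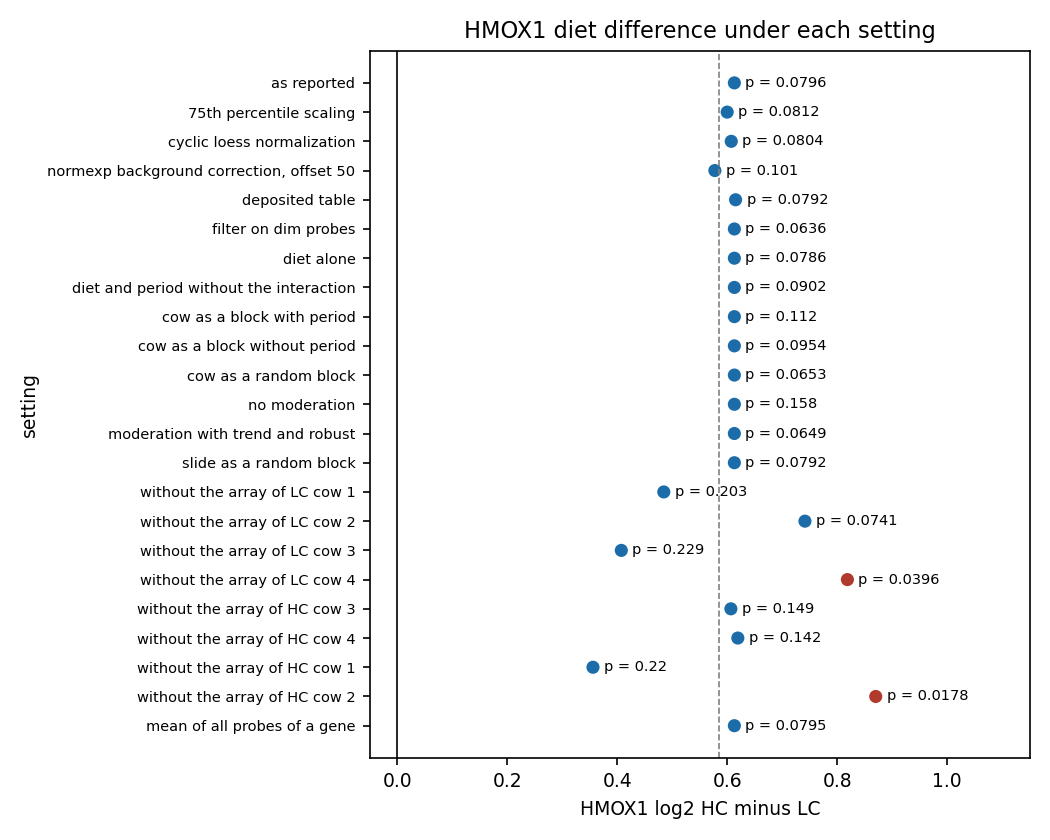
HMOX1 difference between diets (log2 HC minus LC, horizontal axis) as reported and under each other setting (vertical axis), with the unadjusted p of the fit beside each point. The dashed line marks 1.5-fold and red points met both thresholds. The points of settings with all arrays lie together at 0.58 to 0.61, and those that leave out 1 array run from 0.36 to 0.87.

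HMOX1 is also strongly expressed by macrophages that clear red blood cells, so leukocyte markers are given beside it. Of the 10 leukocyte markers 6 had a probe, and ITGAM passed the background test on no array. The 6 had positive differences of 0.05 to 0.31 (log2) at their brightest probes, and 0 met both thresholds. MS4A1 passed the background test on only 2 LC and 3 HC arrays. Its other probe passed on no array and gave -0.09. The summed signal of the 6 markers was 10.16 to 10.64 on LC and 10.11 to 11.05 on HC (log2). CD14, a receptor of monocytes and macrophages, had signals of 10.14, 10.29, 9.67 and 9.90 on LC and 10.67, 10.47, 9.53 and 10.55 on HC in cows 1 to 4. Within cows 1 to 4 the CD14 difference was 0.53, 0.18, -0.14 and 0.65, and that of CD68, a lysosomal protein of macrophages, was 0.48, 0.14, 0.48 and -0.55. In cows 1 and 2 both markers were higher on HC, while HMOX1 was higher in cow 1 and lower in cow 2 (-0.39). In cows 3 and 4 the CD14 and CD68 differences were of opposite sign. The part of leukocyte content in the HMOX1 values was not tested.

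For 6 of the 9 genes, SOD1, CAT, GPX1, PRDX1, PRDX2 and TXN, the 95% interval of the difference lay wholly within 1.5-fold in both directions. The intervals of GPX3, PRDX6 and HMOX1 reached beyond it. The median standard error over the 9 genes was 0.13, as over the 16030 probes above. The median range over the 8 arrays was 0.44 for the 9 genes and 0.59 for those probes.

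In several of the genes the spread between cow means was wider than that within cows, which is given as a description. The SD of the 4 cow means was 0.78 for GPX3 and 0.17 for CAT, against an SD within cows of 0.47 and 0.09. For HMOX1 the order was turned, with 0.31 between cow means and 0.64 within cows, and for PRDX2 both were under 0.1 (0.05 and 0.07). The SD within cows is taken from the 2 arrays of a cow, so it includes any difference between the diets. For HMOX1 that difference was 0.61.

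**Figure D3:**
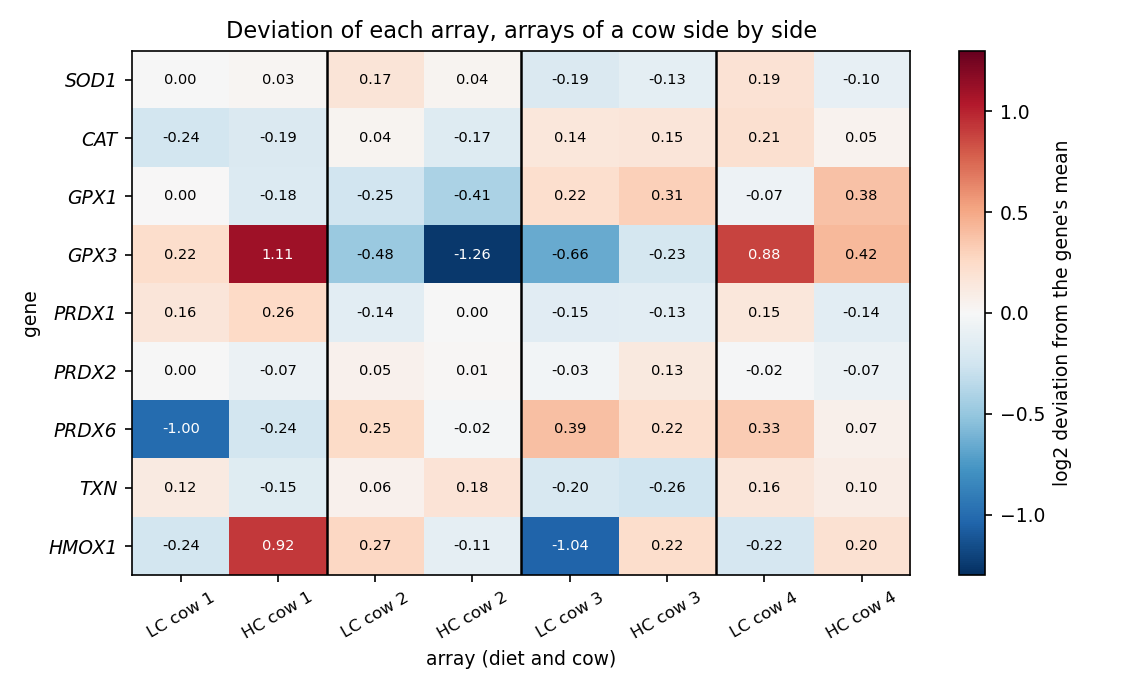
Deviation of each array from the mean of the gene over 8 arrays, in log2 units, with the arrays of a cow side by side between the black lines; blue is below and red above the mean. Both arrays of cows 1 and 4 are above the mean for GPX3 and both of cows 2 and 3 below it, both arrays of cow 1 are below it for PRDX6, and HMOX1 ranges from -1.04 in cow 3 on LC to 0.92 in cow 1 on HC.

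Period, or the slide that goes with it, gave no count among these genes either. The differences between period 2 and period 1 ran from -0.23 for HMOX1 to 0.23 for PRDX6 (log2), and 0 of 9 met both thresholds for period, against 3.86% of all probes. At an unadjusted p under 0.05 the count was 0 of 9, against 12.3% of all probes. Because of the crossover, the interaction of diet and period compares cows 1 and 2 with cows 3 and 4, so it lies between cows. For it 0 of 9 met both thresholds, against 2.93% of all probes, and 2 of 9, GPX1 and CAT, had an unadjusted p under 0.05, against 10.2% of all probes. GPX1 averaged 15.40 in cows 1 and 2 and 15.82 in cows 3 and 4, a difference of -0.42 (standard error 0.12; limma, unadjusted p 0.012, adjusted p 0.389). CAT averaged 12.18 in cows 1 and 2 and 12.46 in cows 3 and 4, a difference of -0.28 (standard error 0.10; limma, unadjusted p 0.0299, adjusted p 0.453). Here both arrays of a cow count as independent samples, while limma on 4 cow means gave an unadjusted p of 0.0383 for GPX1 and 0.076 for CAT.

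The wider system around these enzymes was read from 6 lists with 65 genes, of which 41 had a probe and 39 passed the background test on every array. FECH did so on 1 array and MPO, the peroxidase of neutrophils, on none. For diet, 0 of the 41 met both thresholds, against 0.922% of all probes. In limma 0 of the 41 had an unadjusted p under 0.05, against 3.65% of all probes. The general linear model without moderation gave such a p for 1 of the 41, HMOX2 (-0.07, p 0.0142), and for 891 of all 21475 probes. The differences were positive for 20 genes and negative for 21, with a median of -0.0015. For 27 of the 39 the 95% interval lay within 1.5-fold in both directions.

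Among the other superoxide and peroxide enzymes (7 with a probe), the differences ran from -0.10 for PRDX3, the mitochondrial peroxiredoxin, to 0.26 for GPX7, an enzyme of the endoplasmic reticulum. PRDX3 had a range of 0.23, with signals of 13.43, 13.52, 13.43 and 13.54 on LC and 13.45, 13.30, 13.40 and 13.37 on HC. GPX2, a glutathione peroxidase of digestive epithelium, was chosen for mention after its values were seen, because its range of 5.00 log2 units was the widest of the 39 genes. Its signals were 8.36, 7.78, 4.47 and 7.66 on LC and 7.30, 7.48, 4.65 and 9.47 on HC, so that cow 3 was low on both diets. The median difference of the list was 0.03.

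In the thioredoxin and glutaredoxin list (8 with a probe) the median difference was -0.03. TXNRD1, the reductase that recharges thioredoxin, had the highest difference, 0.22 (standard error 0.14; limma, unadjusted p 0.158), and 3 of 4 cows were higher on HC. GLRX5, which works in iron-sulfur cluster assembly in mitochondria, had the lowest, -0.21 (standard error 0.23).

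The list of glutathione and NADPH supply (6 with a probe) had a median of -0.04, between -0.19 for ME1, the malic enzyme that makes NADPH, and 0.05 for GCLM, a subunit of the enzyme that starts glutathione synthesis. A second ME1 probe gave -0.09. GCLM had signals of 10.61, 10.52, 10.71 and 11.01 on LC and 10.40, 10.25, 10.52 and 11.86 on HC, so cow 4 was highest on both diets and was the 1 cow with a higher signal on HC. Without the HC array of cow 4 the GCLM difference was -0.29, and without the LC array of cow 3 it was -0.03.

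Haem and iron genes stand closest to HMOX1 in function, and 8 had a probe. Their differences ran from -0.08 for ALAS1, the first enzyme of haem synthesis, to 0.11 for SLC40A1, the iron exporter ferroportin, with a median of -0.0032. Second probes gave -0.18 for ALAS1 and 0.03 for SLC40A1. HMOX2, the constitutive haem oxygenase, was lower on HC in 4 of 4 cows by a small amount, with a difference of -0.07 (standard error 0.08; limma, unadjusted p 0.398).

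Of the NRF2 regulators and NQO1, 4 had a probe. NFE2L2, the gene of NRF2 itself, had a difference of 0.12 (standard error 0.16). MAFF, a small MAF protein that pairs with NRF2, was higher on HC in 4 of 4 cows, with a difference of 0.30 (standard error 0.20; limma, unadjusted p 0.191). Most of it came from cow 3, where MAFF was 9.83 on LC and 10.71 on HC. NQO1, a quinone reductase that is a standard NRF2 target, had a difference of -0.25 (standard error 0.26; limma, unadjusted p 0.376). The part of NRF2 in the values of these genes and of HMOX1 was not tested.

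The enzymes that produce oxidants (8 with a probe) had a median of 0.06. XDH, which can release superoxide and peroxide, had the highest difference, 0.27 (standard error 0.22), and DUOXA1, which helps the dual oxidase DUOX1 to mature, had the lowest, -0.16 (standard error 0.18). XDH was 11.92 on LC in cow 4 and 11.17 to 11.30 in the other LC arrays. NCF1, a subunit of the phagocyte NADPH oxidase, was named after its values were seen. It was the 1 gene of the 41 to meet both thresholds for the interaction, against 2.93% of all probes. NCF1 was higher in cows 1 and 2 by 0.64 (standard error 0.16; limma, unadjusted p 0.00599, adjusted p 0.359), while its difference between diets was 0.09. That p counts both arrays of a cow as independent samples. For NCF1, limma on 4 cow means gave an unadjusted p of 0.0166 and an adjusted p of 0.817.

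**Figure D4:**
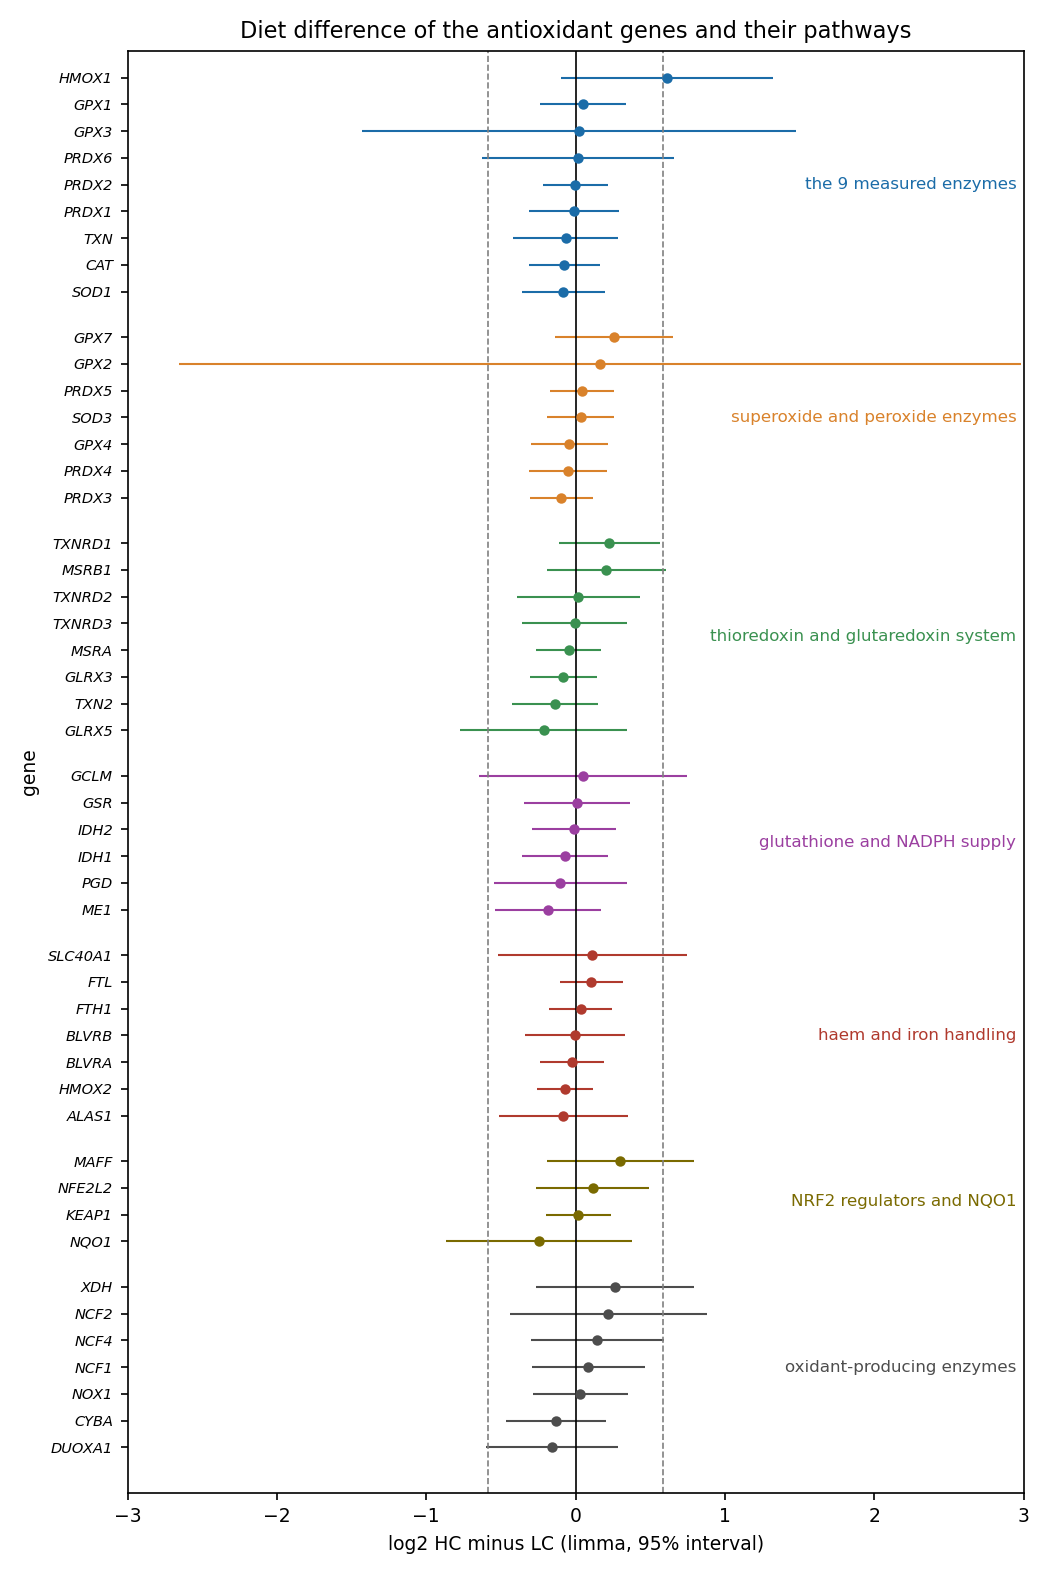
Difference between diets (log2 HC minus LC, horizontal axis) with its 95% interval from limma for the 9 enzyme genes and the 39 genes of the 6 lists that were well above background on all 8 arrays (vertical axis, coloured by list). Dashed lines mark 1.5-fold. The points lie close to 0, HMOX1 is the 1 point beyond a dashed line, and every interval contains 0.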

How the data were processed

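Each of the 8 samples was hybridized to 1 array (Cy3). The authors deposited, per array, the output of Feature Extraction 10.7.3.1, whose intensity per spot is background-subtracted and not normalized between arrays, and a table of log2 values they had quantile-normalized, which served as an alternative. All 8 columns of that table had a median of 6.80, with scale log2 and no centring of genes. The columns named for cows 1 and 2 followed each other's array more closely on both diets, which leaves the diet groups as they are. The cow numbers given here follow the labels of the Feature Extraction output. Which naming of cows 1 and 2 is right was not tested, so values given for cow 1 could belong to cow 2 and the reverse.

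Control and outlier spots (0 to 13 per array) were left out. Log2 intensities were quantile-normalized, as in the study's methods, with limma 3.58.1 in R 4.3.3, and spots of a probe averaged. Of 10176 probes with a RefSeq accession, 8297 were named through the ARS-UCD2.0 gene table. Coordinates are not given, as the array's annotation is of another build. The brightest probe stood for a gene. Diet, period and interaction were fitted to all 21475 probes (4 residual and 2.26 prior degrees of freedom), with Benjamini-Hochberg adjustment over all probes. Exact permutation tests used scipy 1.17.1 and did not pair the arrays of a cow. The fit was tested on simulated data. Normexp used the median spot signal with an offset of 50. Moderation with trend, cyclic loess, other model terms, a filter on dim probes and leaving out arrays were also tried.

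By the sample labels, same-numbered samples are the same cow. The r of their deviations from the diet mean, across 16030 probes, was 0.285, 0.298, 0.467 and 0.113 in cows 1 to 4. Between different cows r ran from -0.237 to 0.185, so for cow 4 the pairing rests on the labels. Named genes are the 9 measured enzymes, and in each list the highest and lowest difference among genes well above background on all 8 arrays and any gene meeting both thresholds. The members and lists were chosen with earlier results of these data known.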

Additional observations from a re-analysis of the deposited data

Results flagged for a closer look

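PRDX6 on the LC array of cow 1 had a log2 signal of 14.89, while the other 3 LC arrays lay between 16.14 and 16.28, a gap that exceeds the critical ratio for 4 values. GCLM on the HC array of cow 4 was 11.86, against 10.25 to 10.52 on the other HC arrays. XDH on the LC array of cow 4 was 11.92, against 11.17 to 11.30 on the other LC arrays. These were 3 of 42 groups of 4 arrays examined in 21 genes, and chance alone sets an array apart in about 1 in 20 groups.

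The diet difference of GPX1 was 0.47 between the arrays of period 1 and -0.37 between those of period 2, and that of CAT 0.20 and -0.35. As the contrast of cows 1 and 2 against cows 3 and 4 these are -0.42 for GPX1 (unadjusted p 0.012, adjusted p 0.389 in limma) and -0.28 for CAT (unadjusted p 0.0299, adjusted p 0.453 in limma). On 4 cow means limma gave an unadjusted p of 0.0383 for GPX1 and 0.076 for CAT.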

How the results depend on the processing

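The 9 enzyme genes had a count of 0 past both thresholds for diet in all 14 settings that kept every array, and 0 to 1 as each array was left out, where the 1 was HMOX1. The 41 list genes had a count of 0 throughout. The count over all probes was 198; it was 8 with normexp background correction, 415 with the deposited table, 75 with the filter on dim probes, 105 without moderation, and 239 to 404 as each array was left out. Counts for period and interaction were 0 among the 9 genes. With cow as a replicate block and period the count for diet was 0 of 9 and 276 of all probes, and no call on a named gene changed. The sign of small differences turned in some settings: GPX1 to -0.0066 and PRDX6 to -0.025 with scaling to the 75th percentile, PRDX6 to -0.0037 with normexp, and PRDX1 to 0.012 and PRDX2 to 0.018 in the deposited table. As each array was left out, differences ranged from -0.18 to 0.011 for SOD1, -0.024 to 0.12 for GPX1, -0.57 to 0.61 for GPX3, -0.086 to 0.063 for PRDX1, -0.052 to 0.050 for PRDX2, -0.30 to 0.33 for PRDX6, -0.16 to 0.026 for TXN, 0.36 to 0.87 for HMOX1, -0.29 to 0.38 for GCLM, -0.21 to 0.050 for ALAS1 and -0.10 to 0.32 for SLC40A1. The cause of these changes was not tested. In this balanced design, settings that changed only the model terms, the moderation or the filter leave the difference itself unchanged, so they could not turn a sign. The direction was kept under all 22 settings for CAT, HMOX1 and the other 9 named list genes, but the size rested on single arrays, with ranges of -0.15 to -0.0074 for CAT, -0.13 to -0.058 for PRDX3, 0.11 to 0.41 for GPX7, -0.40 to -0.029 for GLRX5, 0.10 to 0.35 for TXNRD1, -0.31 to -0.064 for ME1, -0.47 to -0.022 for NQO1, 0.07 to 0.53 for MAFF, -0.31 to -0.0051 for DUOXA1 and 0.078 to 0.45 for XDH.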
